A study of Mus musculus with 5 samples.

Results

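The Schlafen cluster of mouse chromosome 11 was examined in sperm DNA. It comprised an interval of the mm10 build from inside Slfn9 to inside Ap2b1 with the spans of 8 genes, Slfn1, Slfn2, Slfn3, Slfn4, Slfn5, Slfn8, Slfn9 and Slfn14, each taken with 1000 bp either side. The genes lie between 82951349, the first base of Slfn5, and 83286726, the last of Slfn14, and the spans of Slfn5 and Slfn9 were added whole. CpGs with at least 5 reads in at least 4 of the 5 libraries were used, and 437 of the 1929 CpGs listed in the cluster by any library met this, which was 22.7% against 27.6% over all chromosomes. They filled 66 tiles of 1000 bp with at least 3 CpGs, out of 537721 such tiles in all. The cluster was chosen because a tile inside Slfn14 was among those with the smallest p between ages in an earlier look at these data. Values of young and old sperm are therefore given here as a description and support no finding.

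Whole-genome bisulfite sequencing had been applied to sperm that swam out of the cauda epididymis, the storage part of the duct, of C57BL/6 mice. Bisulfite turns unmethylated cytosine into a base read as T, so the percent of reads with C at a CpG is its methylation level. The young group was 3 libraries from mice 2 months old and the old group 2 libraries from mice 18 months old, with no other treatment or allele named. Whether a library stood for 1 animal or a pool is not stated, so SDs measure the spread between libraries and may be technical.

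Schlafen proteins form a family of immune and growth regulators found in mammals, and many of their genes are induced by type I interferon through the JAK-STAT pathway. The short members Slfn1 and Slfn2 act in lymphocyte growth and quiescence. Slfn3 and Slfn4 are of intermediate length, and the long members Slfn5, Slfn8, Slfn9 and Slfn14 carry a helicase-like domain. In mature sperm most of the genome is methylated and CpG-rich promoters are the usual exception. Sperm DNA is tightly packed and not transcribed, so these levels do not report expression.

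Reads over listed cytosines summed to 67774094 to 97769462 per library. At the CpGs used, the median in the cluster was 8 to 10 reads per library. Mean CpG methylation over all used CpGs was 89.3%, 89.6% and 88.4% for young replicates 1 to 3 and 89.4% and 89.3% for old replicates 1 and 2. Young replicate 3 held the lowest value of the 5 libraries in 28.6% of all tiles, the largest such share. Imprinted genes whose control regions are unmethylated in sperm were read with the cell type in mind. The lowest tile was at 7.51% for Snrpn (131 tiles, median 82.3%) and 16.5% for Nnat (3 tiles, median 17.4%). For the other 6 genes the lowest tile lay at 34.9% to 90.3%. The lowest of many tiles can be low by its choice alone, so these values cannot settle the cell type. Tiles with enough reads need not include those control regions.

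The start sites of the members are shown first, because they were where the genes differed most from one another. Sequences are from RefSeq on GRCm38.p6, the patch release of the mm10 assembly, and run from 250 bases before to 50 after the annotated start, with every CpG in capitals. All 8 members matched, and the 5 printed carry the contrasts described next: the most alike pair, with low and intermediate levels (Slfn9 and Slfn8), an adjacent pair with intermediate and high levels (Slfn4 and Slfn3), and the gene of the tile that led to the choice (Slfn14). Slfn9 lies at chr11:82991781-82992080 on the minus strand, Slfn8 at chr11:83020761-83021060 on the minus strand, Slfn4 at chr11:83174936-83175235 on the plus strand, Slfn3 at chr11:83191080-83191379 on the plus strand and Slfn14 at chr11:83286677-83286976 on the minus strand.
Slfn9: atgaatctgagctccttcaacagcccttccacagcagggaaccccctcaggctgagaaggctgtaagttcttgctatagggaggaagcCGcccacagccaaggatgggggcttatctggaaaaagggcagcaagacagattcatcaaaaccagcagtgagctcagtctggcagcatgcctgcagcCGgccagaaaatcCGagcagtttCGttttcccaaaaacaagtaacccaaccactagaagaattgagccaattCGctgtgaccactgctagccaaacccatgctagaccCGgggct
Slfn8: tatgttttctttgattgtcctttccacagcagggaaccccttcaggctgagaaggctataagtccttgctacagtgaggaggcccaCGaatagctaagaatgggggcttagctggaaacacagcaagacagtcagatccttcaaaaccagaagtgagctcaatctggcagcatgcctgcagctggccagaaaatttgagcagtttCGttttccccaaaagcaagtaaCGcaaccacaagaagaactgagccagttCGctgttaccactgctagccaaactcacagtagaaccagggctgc
Slfn4: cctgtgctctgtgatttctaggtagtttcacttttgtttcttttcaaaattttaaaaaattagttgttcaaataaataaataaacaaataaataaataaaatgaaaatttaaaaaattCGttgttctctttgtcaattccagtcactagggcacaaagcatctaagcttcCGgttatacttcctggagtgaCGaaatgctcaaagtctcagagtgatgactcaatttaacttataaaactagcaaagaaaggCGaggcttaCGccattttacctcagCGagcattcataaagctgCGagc
Slfn3: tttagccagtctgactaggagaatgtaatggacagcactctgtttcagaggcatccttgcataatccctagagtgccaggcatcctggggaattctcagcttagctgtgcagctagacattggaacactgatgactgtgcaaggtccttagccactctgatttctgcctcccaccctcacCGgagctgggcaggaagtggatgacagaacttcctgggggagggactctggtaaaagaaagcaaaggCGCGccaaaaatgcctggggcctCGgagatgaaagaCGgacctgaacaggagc
Slfn14: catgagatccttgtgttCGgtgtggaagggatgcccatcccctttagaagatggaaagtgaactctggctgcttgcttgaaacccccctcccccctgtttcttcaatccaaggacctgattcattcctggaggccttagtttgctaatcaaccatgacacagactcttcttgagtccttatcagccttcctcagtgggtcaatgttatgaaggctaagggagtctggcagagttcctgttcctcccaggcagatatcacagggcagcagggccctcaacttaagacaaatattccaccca

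These windows were thinly covered, and 1 of the CpGs in capitals, in Slfn4 at 83175054, met the rule on reads. Every listed CpG was therefore used, and reads were summed. In the Slfn9 sequence 0 of 21 reads were methylated, from young replicate 1 and old replicate 1, which allows a share of up to 14.3% by the limit of 3 counts and 16.1% by the exact 95% interval. In the Slfn8 sequence 18 of 31 reads were methylated, a share of 58.1% with an exact (Clopper-Pearson) 95% interval of 39.1% to 75.5%. They were 4 of 5 in young replicate 1, 14 of 21 in young replicate 2 and 0 of 5 in old replicate 2. Aligned end to end, the sequences of Slfn9 and Slfn8 shared 248 of 292 bases, or 84.9%, while the next pair by shared bases, Slfn9 and Slfn1, shared 165 of 265. Reads that match both copies could be placed at either, and the effect of this was not tested. The Slfn4 sequence had 40 of 106 reads methylated (37.7%, interval 28.5% to 47.7%) and its 7 CpGs lay between 30.4% and 50%. Its reads came from young replicates 2 and 3 (6 and 26) and old replicates 1 and 2 (28 and 46). The Slfn3 sequence had 59 of 65 reads methylated (90.8%, interval 81.0% to 96.5%), all from young replicates 1 and 2. Only young replicate 2 was read in both windows, with 0 of 6 reads methylated in Slfn4, all at 83175054, and 29 of 30 in Slfn3. The gap between Slfn4 and Slfn3 was thus present within that library, on few reads. In the summed reads it is mixed with any difference between libraries. The sequence of Slfn14 holds 1 CpG, and all of its 14 reads, from the old libraries, were methylated. Slfn1 holds 6 CpGs in its sequence and no library listed any of them, so its promoter level is unknown. Reads were counted once at each CpG, and neighbouring CpGs can share reads, so the counts are not independent. Such intervals and limits, here and below, can therefore be too narrow even for counting error. They also leave out the spread between libraries.

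A search of both strands of the RefSeq windows for the core of the interferon-stimulated response element, written as GAAA, any 2 bases and GAAA, found it in Slfn5, Slfn8 and Slfn9. Over all 32851 windows 3.44% held it. In Slfn9 and Slfn8 the match reads TTTCGTTTTC on the printed strand, ends 36 and 39 bases before the start, and encloses a CpG. That CpG was listed for Slfn8, at 83020854, where 4 of 12 reads were methylated, 4 of 7 in young replicate 2 and 0 of 5 in old replicate 2. The same CpG of Slfn9 was listed in no library. The gamma-activated site TTCNNNGAA was found in 0 of the 8 members and in 8.30% of all windows. Reading the sequences showed the letters CTTCCTGG in Slfn1, Slfn2, Slfn3 and Slfn4, between 73 and 34 bases before the start, against 4.12% of all windows. This motif was picked after the sequences were seen, and a match shows letters only.

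Over a wider window of 1000 bp either side of the start, Slfn9 and Slfn5 were again low and Slfn3 and Slfn14 high. Slfn9 was the least methylated, with 0 of 35, 0 of 10 and 3 of 41 reads methylated for young replicates 1 to 3, 9 of 78 for old replicate 1 and 0 of 54 for old replicate 2. Summed over libraries this was 5.50% (95% interval 2.88% to 9.42%). Slfn5, whose protein acts in the nucleus as a regulator of transcription, was next at 15.6% (8.77% to 24.7%) on 90 reads. Of these, 6 of 58 were methylated in young replicate 3 and 8 of 17 in old replicate 1, and the other libraries had 0 of 5 each. Both starts were low in each library apart from Slfn5 in old replicate 1.

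Slfn4 and Slfn8 were intermediate. Slfn4, a gene of activated macrophages and myeloid cells, was at 88.5%, 63.6% and 72.6% for young replicates 1 to 3 and 48.1% and 55.1% for old replicates 1 and 2, on 26 to 98 reads a library. The old libraries lay below the young ones, but the libraries did not list the same CpGs, and only 3 of the 20 listed CpGs met the rule on reads. Slfn8 was at 33.3%, 57.7% and 80.6% in young and 78.8% and 62.5% in old libraries, on 16 to 36 reads, and the young values spanned the old ones. Its other annotated start, at 83020722, had the same CpGs in its window. Slfn8 was above Slfn9 in 5 of 5 libraries, a comparison chosen after the values were seen.

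The remaining members were above 75% in this window when summed over libraries. Slfn2 was at 80%, 72.4% and 70.6% in young and 82.0% and 69.6% in old libraries, on 23 to 68 reads. In its narrower RefSeq window Slfn2 was intermediate, with 12 of 23 reads methylated (52.2%, interval 30.6% to 73.2%). Slfn1 was at 85.4% summed over libraries (72.2% to 93.9%) on 48 reads, with none in young replicate 2. Slfn3, linked to differentiation of the intestinal epithelium, was at 88.6%, 96.7% and 100% in young and 100% and 97.5% in old libraries. Slfn14, which encodes a ribosome-associated endoribonuclease of the blood lineages, was at 98.9%, 98.3% and 98.3% in young and 96.5% and 98.3% in old libraries, on 60 to 121 reads. Slfn4 lay below its neighbour Slfn3 in 5 of 5 libraries, by little in young replicate 1. Of the 26172 start windows with at least 50 reads over all libraries, 30.6% were under 20%, 29.9% between 20 and 80% and 39.6% over 80%, so the members covered all of these ranges. In DNA from many cells, a level between 0 and 100% does not tell a part of the sperm with a methylated gene from sites partly methylated in all of them.

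**Figure D1:**
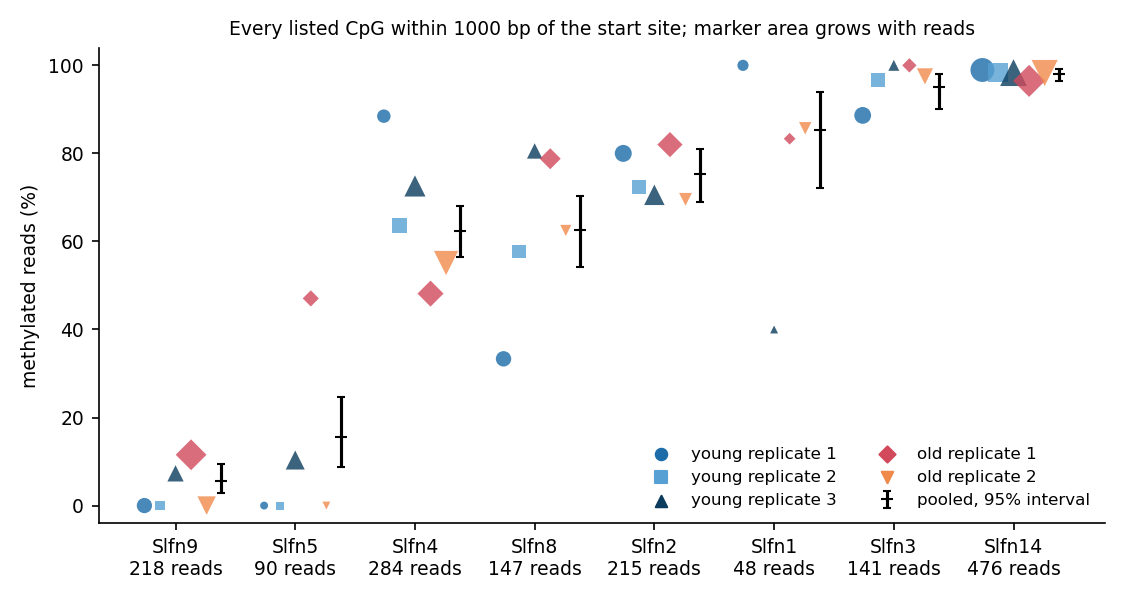
Percent of methylated reads (y axis) at every listed CpG within 1000 bp of the start of each member (x axis, ordered by the summed level), with 1 marker per library, its area growing with the reads, and a black dash and bar for the sum over libraries with its 95% Clopper-Pearson interval. Slfn9 and Slfn5 lie low, at 5.50% and 15.6%, Slfn4 and Slfn8 near 62%, and Slfn3 and Slfn14 above 95%.

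Over all used CpGs, few of them near a start, the cluster was highly methylated. Its mean was 92.2%, 93.0% and 91.2% for young replicates 1 to 3 and 90.5% and 91.2% for old replicates 1 and 2. The group means were 92.1% ± 0.894 (SD, n = 3) and 90.9% ± 0.512 (SD, n = 2), a difference of -1.25 points, with young replicate 3 below old replicate 2 by a small margin. Without the Slfn14 tile the difference was -1.05 points, and without young replicate 2 it was -0.828. Of the 66 tiles, 53 were above 90% in the mean of the libraries, or 80.3% against 74.2% of all tiles. In the mean over tiles the cluster exceeded all tiles of the genome by 2.20 points ± 1.08 (SD over 5 libraries), in 5 of 5 libraries (two-sided exact sign permutation test, p = 0.063, the smallest that 5 libraries allow, adjusted p = 0.0938 over 3 comparisons). The test asks whether the excess repeats between libraries, not whether it is large beside the spread between regions of the genome. Over the tiles of chromosome 11 alone the excess was 1.29 points, and 78.8% of those tiles were above 90%. The median tile was at 94.7% in the cluster, 94.4% over all tiles and 94.9% on chromosome 11. The typical cluster tile was thus close to both backgrounds.

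**Figure D2:**
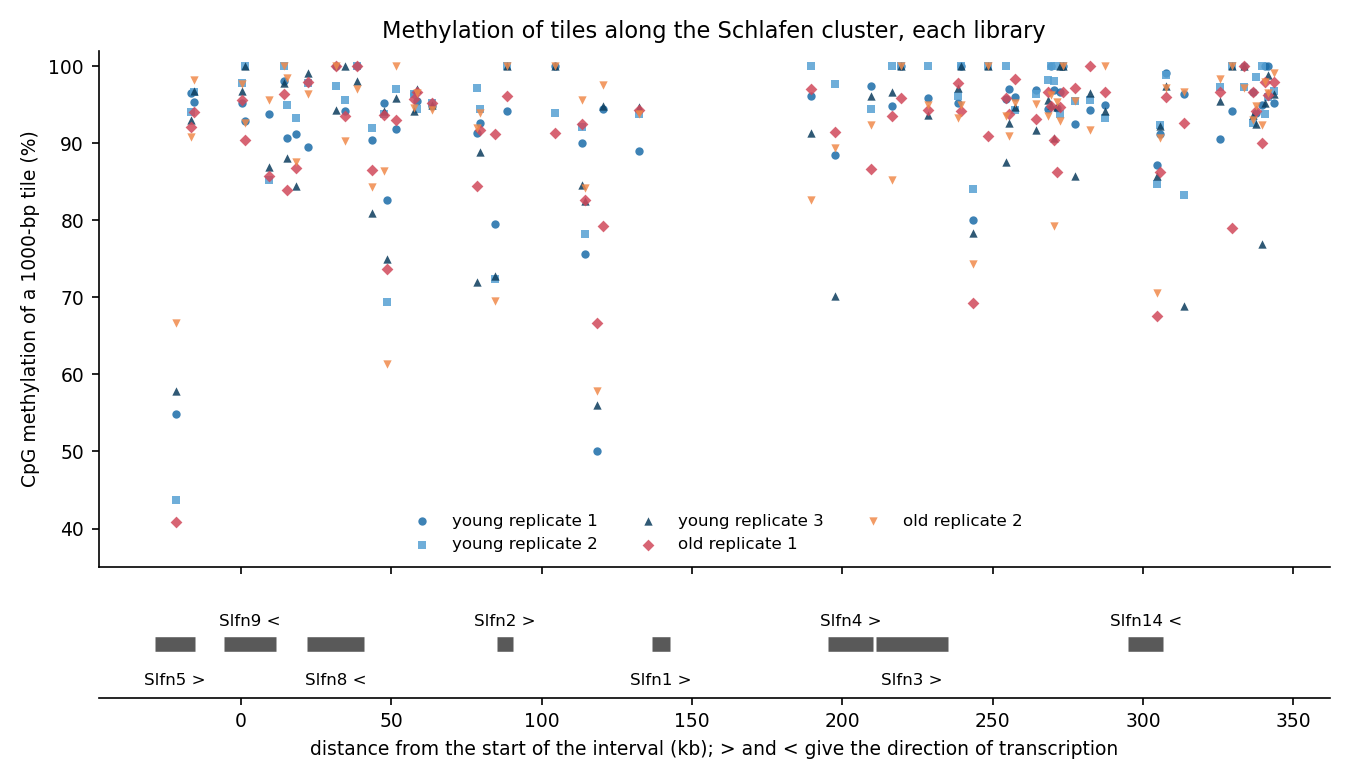
CpG methylation in percent (y axis) of each 1000-bp tile of the cluster in each library against the distance in kb from the start of the interval (x axis), with the 8 member genes as grey bars beneath and their direction of transcription. Most tiles lie above 90% in all libraries, a few lie between 40% and 80%, and a stretch of 56 kb that holds Slfn1 and ends before Slfn4 has no tile with enough reads.

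The mean of the libraries was under 75% in 3 tiles, 1 in Slfn5 and 2 outside the member genes. The Slfn5 tile (chromosome 11, 82958001 to 82959000, 3 CpGs) was at 54.8%, 43.8% and 57.9% in young and 40.9% and 66.7% in old libraries, on 22 to 38 reads. The old libraries lay at both ends of the range. The tile at 83028001, at the edge of the pseudogene Slfn10-ps, was at 82.7%, 69.4% and 75% in young and 73.7% and 61.3% in old libraries. The tile at 83098001, between Slfn2 and Slfn1, was at 50% and 56% in young replicates 1 and 3 and 66.7% and 57.9% in old libraries, with no reads in young replicate 2. Among all tiles 8.62% were under 75%, against 4.55% here. Tiles holding exactly 3 CpGs, just inside the rule, had a median of 94.6% (21 tiles), and the 25 places with 2 CpGs, just outside it, 94.9%.

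The gene spans were compared next, from the short to the long members, with reads summed over the used CpGs of each gene and 1000 bp either side. Slfn1 rested on 3 CpGs and 5 to 34 reads, with 100%, 91.7% and 81.3% in young and 79.2% and 91.2% in old libraries. Slfn2 rested on 6 CpGs and was at 83.9%, 84.0% and 82.4% in young and 93.3% and 78.8% in old libraries, so the old libraries lay on either side of the young ones. For both genes the SD of the old libraries was larger than the difference between ages.

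Slfn3 (28 CpGs) was at 92.8%, 98.7% and 92.2% in young and 92.7% and 93.3% in old libraries, with young replicate 2 apart from the other 4. Slfn4 (21 CpGs) was at 91.3%, 88.7% and 86.9% in young and 88.8% and 89.6% in old libraries, the old values lying inside the young range. Slfn5 (22 CpGs) had 91.0% ± 0.730 in young (SD, n = 3) and 91.5% ± 2.47 in old libraries (SD, n = 2). Slfn8 (27 CpGs) had 95.3% ± 2.50 and 93.9% ± 0.395, and Slfn9 (17 CpGs) 95.1% ± 0.415 and 94.5% ± 0.502. None of these 5 genes had ages that did not overlap.

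Slfn14 was the exception in this respect. Its 21 CpGs gave 90.9%, 89.8% and 91.9% in young and 80.5% and 85.9% in old libraries, on 433 to 657 reads, a difference of -7.68 points. All old values lay below all young ones, and without old replicate 1 the difference was -5.002 points. Without the 5 CpGs of the tile that led to the choice, the span was at 93.2%, 93.2% and 94.3% in young and 89.4% and 93.2% in old libraries. The difference was then -2.27 points, and old replicate 2 lay within the young range.

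In a quasi-binomial model, with dispersions moderated as in limma, fitted to 27137 gene spans, 0 of 8 members passed an adjusted p under 0.05 with a difference of at least 10 points, and 0% of all spans did. In the same model 1 member, Slfn14, and 1.64% of all spans had an unadjusted p under 0.05. Old libraries lay below the young ones without overlap in 1 of 8 members, against 6.98% of all spans, and above them in 0, against 7.51%. Since the cluster was chosen by this contrast, nothing is read from these counts. The median difference of the 8 members was -1.001 points, against 0.0828 over all genes. In order of the mean over libraries the spans ran from Slfn2 (84.5%), Slfn14 (87.8%), Slfn1 (88.7%) and Slfn4 (89.1%) to Slfn5 (91.2%), Slfn3 (94.0%), Slfn8 (94.8%) and Slfn9 (94.8%), and neighbours in that order overlapped between libraries. Slfn9, with the least methylated start, had one of the most methylated spans, and none of the 17 CpGs of that span lay within 1000 bp of its start.

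**Figure D3:**
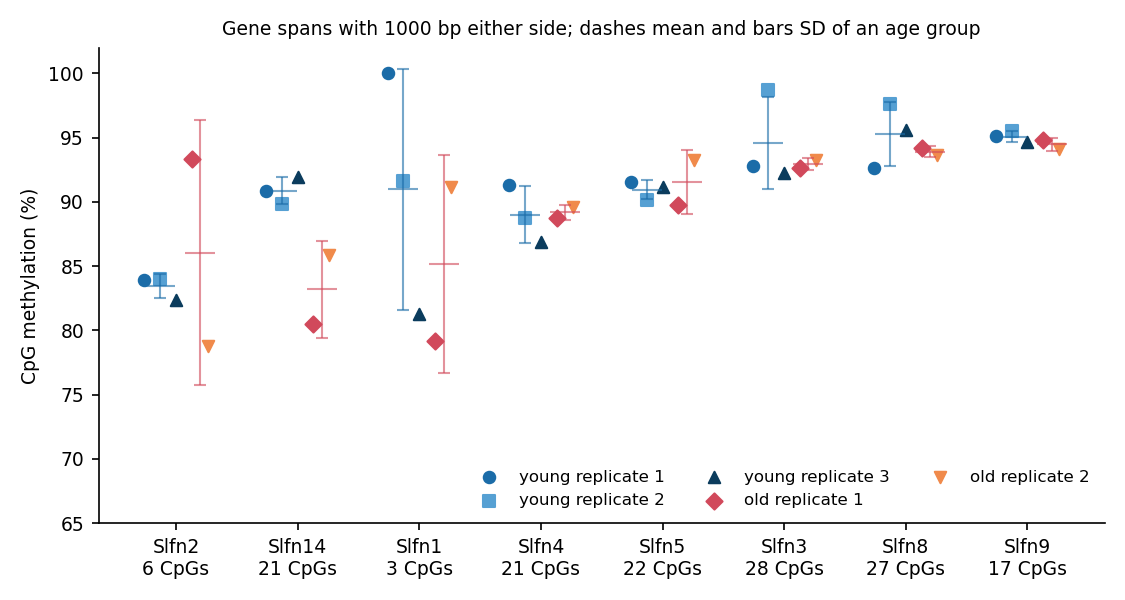
CpG methylation in percent (y axis, from 65) of the span of each member (x axis, ordered by the mean, with its number of CpGs) in each library, with the mean of each age as a dash and its SD as a bar. Slfn14 is the only member whose old libraries, at 80.5% and 85.9%, lie below all young ones.

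The Slfn14 tile lies inside the gene, and its 5 used CpGs are 1791 to 2105 bases downstream of the start. Exons and introns were not used here. The tile was at 87.2%, 84.7% and 85.8% in young and 67.5% and 70.6% in old libraries, on 170 to 231 reads. These values chose the cluster and are given with no test: 85.9% ± 1.23 (SD, n = 3) and 69.1% ± 2.16 (SD, n = 2), a difference of -16.8 points. With at least 20 reads in each library, 0.351% of 367377 tiles of the genome differed by as much in either direction. Since the tile was picked by this contrast, that share carries no weight and is not a p-value.

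All 5 used CpGs of the tile had a lower mean in old sperm, and at 4 of them the libraries did not overlap. Over the genome 6.32% of CpGs read in all libraries had old values below young ones without overlap. At 83284935, the best covered with 78 to 106 reads, young libraries were at 88.3%, 87.1% and 87.5% and old libraries at 72.6% and 75.6%. At 83284782 they were at 70.6%, 67.7% and 74.3% and at 42.9% and 57.1%, the lowest levels of the 5 used CpGs in both ages. At 83284721 they were at 95%, 87.0% and 96.2% and at 79.3% and 68.2%. At 83284621, on 11 to 28 reads, they were at 100%, 100% and 83.3% and at 78.6% and 71.4%. The overlap was at 83284632, where old replicate 2 and young replicate 3 were both at 85.7% and old replicate 1 at 61.5%. The same reads can cover neighbouring CpGs, so these 5 are not independent. The tile holds 9 CpGs listed by any library, and those not used were each listed in a single library. At these, young replicate 3 was at 42.9%, 55.6% and 37.5% on 7 to 9 reads, and old replicate 2 at 40% on 5 reads.

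In the tiles on the side of the start the gap was smaller. Since the Slfn14 tile was picked for its gap, this shows no trend along the gene. The next tile (83285001 to 83286000, 7 CpGs) was at 91.2%, 92.4% and 92.2% in young and 86.2% and 90.6% in old libraries. The tile upstream of the start (83287001 to 83288000) was at 99.1%, 98.9% and 97.4% and at 96.0% and 97.1%. Both differences, -3.51 and -1.92 points, were led by old replicate 1. The Slfn14 tile also had more reads than most, at 37.3 reads per CpG and library, while the median CpG of the cluster had 8.20. It ranked 7 of 66 tiles in this respect, and 13 tiles had more than 2 times the median of the tiles. The part of this coverage in the difference was not tested.

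**Figure D4:**
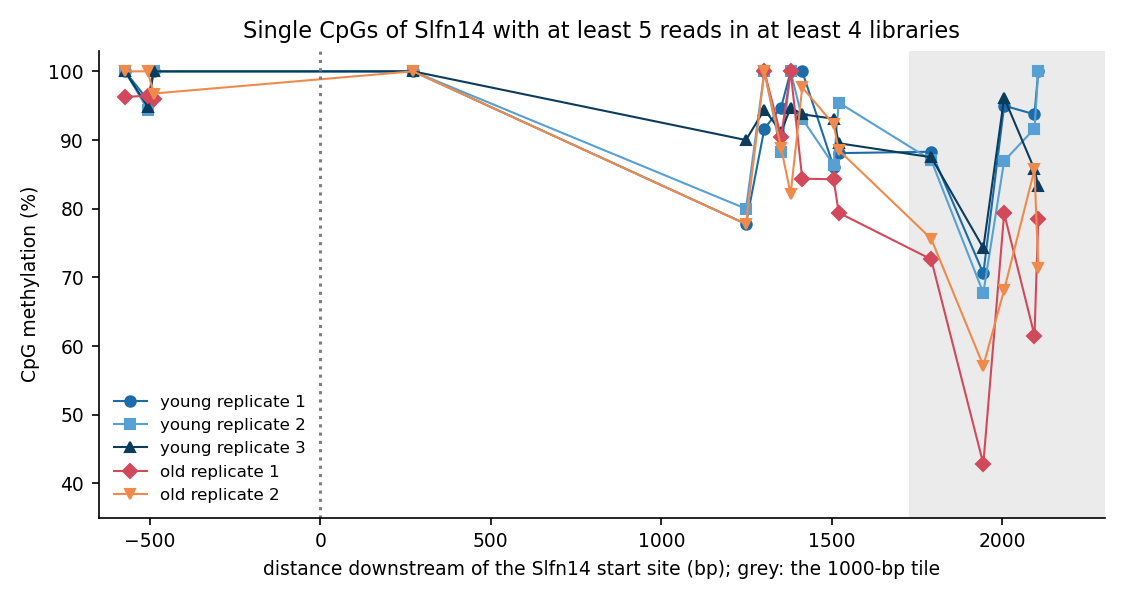
CpG methylation in percent (y axis, from 35) of single CpGs of Slfn14 in each library against the distance in bases downstream of its start site (x axis, dotted line at the start), with the 1000-bp tile in grey. The libraries run together between 94.4% and 100% upstream of the start, and the old libraries lie below the young ones at 4 of the 5 used CpGs in the tile.

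Across the cluster, 0 of 66 tiles passed the quasi-binomial model at an adjusted p under 0.05 and at least 10 points, against 0.000372% of all tiles. In the same model 4 tiles, all lower in old sperm, had an unadjusted p under 0.05, and 2.93% of all tiles did. By limma on the log2 odds 0 tiles passed in the cluster, and 0 of all 537721 tiles did. With young replicate 3 left out, 1 tile passed, that in Slfn14 which chose the cluster, and so did 221 tiles of the genome, against 2 with all libraries. Of the 62 tiles read in all libraries, 12 had old values below young ones without overlap, against 8.24% of all tiles, and 4 above, against 8.29%. The 12 were at Slfn5, Slfn9, Slfn8, Slfn4, Slfn3 and Slfn14 and in 4 places outside the members. These counts come from the contrast behind the choice and carry no weight. In the cluster 24 of 256 CpGs read in all libraries were lower in old sperm without overlap and 6 higher, for which the genome gave 6.32% and 5.08%.

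Among tiles with at least 20 reads in each library, the lowest differences after the Slfn14 tile were outside the members. A tile in the noncoding gene Gm38924 (83250001 to 83251000) was at 97.0%, 98.1% and 90.7% in young and 90.4% and 79.2% in old libraries, on 33 to 53 reads. The tile at the edge of the noncoding gene AI662270 (83223001 to 83224000) was at 80%, 84.0% and 78.3% and at 69.2% and 74.4%. Among member tiles, Slfn3 had one (83196001 to 83197000) at 94.9%, 100% and 96.7% and at 93.6% and 85.2%. The highest differences were at 83293001, with 96.4%, 83.3% and 68.9% in young and 92.6% and 96.7% in old libraries, and just upstream of Slfn2 (83064001 to 83065000), with 79.5%, 72.4% and 72.7% and with 91.2% and 69.6%. The third was between Slfn2 and Slfn1 (83093001 to 83094000), at 90%, 92.1% and 84.6% and at 92.5% and 95.6%. In the first of these the low value was that of young replicate 3, and in the second the high value was that of old replicate 1.

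The lowest tiles of the other members were close to the level of the cluster. In Slfn8 it was at 96.6% ± 3.05 in young and 91.9% ± 2.28 in old libraries (83014001 to 83015000). In Slfn9 it was at 88.6% ± 4.52 and 90.7% ± 7.03 (82989001 to 82990000), on as few as 7 reads. In Slfn4 it was the tile with the largest young SD, with young replicate 3 at 70.2%. Slfn1 had no tile with 3 CpGs.

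The spread among the young libraries was of the size of the usual difference between ages. The median SD over the 3 young libraries was 2.90 points in the cluster and 3.10 over all tiles, and the median size of the difference between ages was 2.33 and 2.10 points. With young replicate 1, 2 or 3 left out, the median SD in the cluster was 1.53, 2.16 or 1.99 points. These rest on fewer libraries per SD and are not like for like. The tiles with the largest young SD were in Slfn4 (83177001 to 83178000), at 88.5%, 97.7% and 70.2% in young replicates 1 to 3, at 83293001, given above, and between Slfn10-ps and Slfn2 (83058001 to 83059000), at 91.4%, 97.2% and 71.9%. In each of them young replicate 3 was the lowest library and the old libraries were at 84.4% or more. Young replicate 3 alone was lowest in 15 of the 62 cluster tiles read in all libraries (24.2%, against 28.6% of all tiles). Old replicate 1 was lowest in 17 (27.4% against 16.8%) and old replicate 2 in 15 (24.2% against 18.1%). Nothing is read from these shares, since they reflect the contrast behind the choice.

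Other genes of the interferon pathway were taken from a list of 26, of which 21 had measured spans. By the quasi-binomial model 0 of them passed in either direction, with 17 at a higher and 4 at a lower value in old sperm, where all 27137 spans had 14219 higher and 12879 lower. Their median difference was 0.969 points, against -1.001 for the Schlafen members. In that model 2 of the 21, Adar and Ifit2, had an unadjusted p under 0.05, and 1.64% of all spans did. Adar, which encodes an RNA-editing deaminase, averaged 63.9% ± 6.52 over the young (SD, n = 3) and 44.4% ± 6.92 over the old libraries (SD, n = 2). It rested on 12 used CpGs and 35 to 86 reads a library. Ifit2, an interferon-induced gene, averaged 72.8% ± 0.898 and 77.3% ± 0.917. Oas1a, encoding a sensor of double-stranded RNA, was the least methylated span, at 32.5% ± 0.0774 and 31.6% ± 3.13. The Schlafen spans, between 84.5% and 94.8%, lay within the range of these genes, 32.1% to 97.4%.

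Other immune gene clusters served for comparison of levels. Tiles of the PYHIN genes, which encode sensors of DNA such as Aim2, were at 90.2% in the mean of the libraries and those of the guanylate-binding protein genes at 92.4%, with 92.1% in the Schlafen cluster. The Schlafen tiles were above the PYHIN tiles by 1.98 points ± 1.05 in 5 of 5 libraries (exact sign permutation test, p = 0.063, adjusted p = 0.0938) and differed from the guanylate-binding protein tiles by -0.238 points ± 0.799, higher in 3 of 5 (p = 0.5625, exact). None of the 3 comparisons can pass 0.05 with 5 libraries, and the test does not measure the spread between regions. Old minus young was 0.136 points for the PYHIN and 0.145 for the guanylate-binding protein tiles, and the same libraries serve in each.

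Markers of other cells that a sperm sample can hold were read beside these values. The spans of 7 of 10 leukocyte genes were measured, 5 lower and 2 higher in old sperm, with means of 87.4% to 89.7% in young and 87.9% to 88.0% in old libraries. Those of 6 of 10 epididymal epithelium genes were at 70.7% to 94.6% in young and 86.1% to 87.9% in old libraries, 5 higher and 1 lower. Young replicate 3 was the lowest library there and young replicate 2 the highest. The spans of 5 of 7 germline genes, listed for promoters unmethylated in germ cells, were at 92.5% to 92.9% and 93.1% to 93.3%, 3 higher and 2 lower. Within 1000 bp of the start all 7 had reads, with a median of 45.8% when summed over libraries. The lowest was Dazl, at 9.35% on 139 reads. Ddx4, with 61 used CpGs there, was highest, at 83.2%, 72.9% and 89.6% in young and 83.4% and 89.3% in old libraries. Low levels were thus not seen at each of these starts, and the reason was not tested. The part of other cells in the Slfn14 difference was not tested.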

How the data were processed

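DNA methylation of sperm was measured in 5 bisulfite libraries, grouped by the age in the labels (3 young, 2 old). The build mm10 and the tools Bismark 0.16.3, methylKit 1.4.0 and Trim Galore 0.4.3 are named, without role, per the submitters' processing notes. Settings and any removal of duplicates were not given in the sources used here. Tables as deposited give, per the file headers, a count of reads covering each cytosine and strand, and the percent of those reads with C or T. Cytosines under 5 reads are not listed.

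Methylated reads were percent times coverage, whole for 100% of cytosines within the rounding of the percent, and both strands of a CpG were summed. Tiles and gene spans sum reads, while means of the cluster weight CpGs equally. Old was compared with young in a quasi-binomial model of all tiles, and of all gene spans, with a dispersion moderated as in limma's squeezeVar, not under 1, and Benjamini-Hochberg adjustment. Its prior came from features with a mean expected variance of at least 2 per library. This was set after the design was written, when tests on simulated data found that a prior from all tiles made no calls. Levels were compared by exact sign permutation over libraries. Genes and starts came from RefSeq tables of GRCm38.p6, which give no exons.

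Named tiles were the one in Slfn14, the lowest in each member, and, with at least 20 reads in each library, the 3 largest differences in each direction and the 3 largest young SDs. The tiles of low level and the Slfn14 neighbours were added after their values were seen. Members and lists were chosen with earlier results of these data known. Alternatives covered the CpG set, coverage limits, tile width, CpGs per tile, gene flanks, the model, the replicate number and each library left out. Tools were R 4.3.3 with limma 3.58.1 and Python 3.11.15 with Biopython 1.88, scipy 1.17.1, numpy 2.4.6, matplotlib 3.10.9 and pandas 2.3.3. Depth limits precision: the median cluster tile had 42 to 54.5 reads in a library.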

Additional observations from a re-analysis of the deposited data

How the results depend on the processing

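The count of 0 called tiles in the cluster was kept in 14 of 16 alternatives. It was 1, the Slfn14 tile, in a binomial model with no dispersion, which called 1129 tiles of the genome, and between 0 and 1 with a library left out, where the 1 came without young replicate 3, which called 221, against 2 with all libraries. The cause was not tested. For that tile, which chose the cluster, the difference was between -18.4 and -15.3 points with a library left out. The other settings at this tile width kept the same reads of the tile, so they could not alter its difference. The count of called member spans was 0 in 11 alternatives. The difference of the cluster mean was negative in 12 of 12, between -1.72 and -0.828 points with a library left out and -2.09 with every listed CpG, chosen after seeing the data. The excess over all tiles was 1.29 points when only chromosome 11 was the background. The median young SD was between 1.53 and 2.16 points with a young library left out, on fewer libraries per SD. Differences of the Slfn2 span, from -5.61 to 9.91 points, and of the Slfn4 span, from -5.32 to 1.75, changed sign with the setting, as did those of Slfn1, Slfn3, Slfn5 and Slfn8. Libraries of the same number share only that number: across tiles their deviations from the group mean correlated at 0.00814 and -0.0102. With the replicate block the cluster difference was -1.72 points and 0 cluster tiles and 0 member spans were called, against 29 tiles and 8 spans of the genome. The median of 8 to 10 reads per CpG and library limits precision at single CpGs and at thinly read starts, where ages were not tested.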

Other observations

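Genes between the members were measured in the same way. The pseudogene Slfn10-ps, between Slfn8 and Slfn2, was at 94.8%, 94.5% and 93.9% for young replicates 1 to 3 and 93.9% and 91.6% for the old ones, on 853 to 1017 reads over 27 CpGs. The noncoding gene AI662270, between Slfn3 and Slfn14, averaged 84.3% ± 1.01 over the young (SD, n = 3) and 75.3% ± 4.39 over the old libraries (SD, n = 2), on at least 48 reads each. Ap2b1, which encodes a subunit of the clathrin adaptor AP-2 and lies beyond Slfn14, was at 95.9% ± 1.33 and 95.9% ± 0.860 over 147 CpGs. The noncoding gene AA465934 was at 71.1%, 75% and 66.1% in young and 67.6% and 97.1% in old libraries, on 35 to 56 reads, so its old libraries differed more from each other than the young ones did. None of these 4 passed in the quasi-binomial model, and their differences are descriptions, as they lie in or reach into the interval chosen by the same contrast.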
